A study of Homo sapiens with 4 samples.

Results

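GATA1 and GATA2, the genes of a pair of zinc finger transcription factors of the blood lineage, were examined as 2 windows of the K562 genome in ChIP-seq for DPF2 and for histone H3 crotonylated at lysine 14 (H3K14cr). The windows were set by position and not by signal: chrX:48630001-48665000 around GATA1, which starts at 48644982 on the plus strand, and chr3:128180001-128330000 around GATA2, whose gene spans 128198265-128212030 on the minus strand. They hold 35 and 150 tiles of 1 kb on hg19, so 185 of the 2598309 tiles of the genome that carried a read. K562 is an established human leukaemia line with erythroid features; all cells were wild type, the labels name no treatment, and chromatin was fixed with formaldehyde. The study holds 4 libraries, 2 per antibody, and no control library was analysed here. Distances are given from the annotated start to the centre of a tile, positive along the gene, and CPM stands for reads scaled to a library of 1000000.

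GATA1 is required for red cell and megakaryocyte development, and GATA2 for blood stem and progenitor cells. During erythroid maturation GATA1 replaces GATA2 at GATA2's own regulatory elements, an exchange known as the GATA switch, and each gene is controlled by several enhancers in its introns and upstream. DPF2 belongs to the BAF family of nucleosome remodelling complexes, and its paired PHD fingers can recognise an acyl group, such as crotonyl, on this lysine. Both windows hold further starts: in the RefSeq promoter table (GRCh38.p14) HDAC6, the gene of a cytoplasmic deacetylase, starts 14.8 to 15.5 kb downstream of the GATA1 start. In the same table GATA2 has another start 4.7 kb inside the gene, and the antisense RNA gene GATA2-AS1 starts at 4.0 kb on the opposite strand. The long noncoding RNA genes LOC90246 and LINC01565 start 14.6 and 82.9 kb upstream of GATA2 (-14.6 and -82.9 kb), and DNAJB8 and DNAJB8-AS1 26.3 and 29.6 kb downstream. These distances come from another build than the signal and were not converted, and starts are matched by gene name only. The first GATA2 start below is the one farthest upstream, the window's annotated start.

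The promoters are shown because H3K14cr differed between them: it was 2.39 and 2.42 CPM in the tile of the GATA1 start, 1.19 and 1.27 in that of the first GATA2 start, and at its highest in the windows 3.5 and 4.5 kb inside GATA2. Each is a stretch of 300 bases, most of it before a start, from RefSeq on GRCh38.p14, at chrX:48786340-48786639 (plus strand) for GATA1, chr3:128493152-128493451 (minus strand) for the first GATA2 start, chr3:128488481-128488780 (minus strand) for the inner start and chr3:128488953-128489252 (plus strand) for GATA2-AS1. Capitals mark matches on either strand to GATAA (the core of a GATA site), to CACCC (a box bound by Krüppel-like factors), to CCAAT (bound by NF-Y), to TATAAA (an element of some core promoters) and to GGGCGG (an element bound by Sp1). No match overlaps another.
GATA1: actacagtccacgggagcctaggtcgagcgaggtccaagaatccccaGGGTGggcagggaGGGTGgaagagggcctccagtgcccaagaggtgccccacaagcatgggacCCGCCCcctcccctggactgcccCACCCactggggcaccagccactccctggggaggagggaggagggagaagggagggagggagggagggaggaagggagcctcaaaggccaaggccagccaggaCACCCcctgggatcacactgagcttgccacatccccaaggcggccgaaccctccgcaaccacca
GATA2 first start: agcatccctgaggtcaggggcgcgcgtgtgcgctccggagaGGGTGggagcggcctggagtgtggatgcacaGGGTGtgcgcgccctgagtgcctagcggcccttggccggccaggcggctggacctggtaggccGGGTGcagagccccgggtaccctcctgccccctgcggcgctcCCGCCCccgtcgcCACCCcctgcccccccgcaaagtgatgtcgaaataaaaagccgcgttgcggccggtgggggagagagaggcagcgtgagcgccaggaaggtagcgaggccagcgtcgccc
GATA2 inner start: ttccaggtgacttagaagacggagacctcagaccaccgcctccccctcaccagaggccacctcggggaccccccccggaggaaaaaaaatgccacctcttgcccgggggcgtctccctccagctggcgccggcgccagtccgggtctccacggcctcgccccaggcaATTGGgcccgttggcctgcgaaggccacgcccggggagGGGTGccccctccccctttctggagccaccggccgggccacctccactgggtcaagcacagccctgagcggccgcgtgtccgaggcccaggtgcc
GATA2-AS1: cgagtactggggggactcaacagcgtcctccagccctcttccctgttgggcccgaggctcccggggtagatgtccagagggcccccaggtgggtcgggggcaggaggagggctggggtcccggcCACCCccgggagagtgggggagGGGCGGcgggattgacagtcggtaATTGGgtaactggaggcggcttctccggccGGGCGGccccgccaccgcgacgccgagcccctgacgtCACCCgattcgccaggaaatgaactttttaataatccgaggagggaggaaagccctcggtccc

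None of these 4 promoters holds GATAA, which 22.7% of the 35116 promoters of the table hold, or TATAAA (11.5%). The GATA1 promoter and the first GATA2 promoter each hold 4 CACCC matches, against 1 at the inner GATA2 start and 2 at GATA2-AS1; 59.9% of all promoters hold at least 1. CCAAT (34.6% of all promoters) was matched once at the inner GATA2 start and once at GATA2-AS1. GGGCGG (45.0%) was matched once at GATA1, once at the first GATA2 start and 2 times at GATA2-AS1. GATA1 has 7 CpG dinucleotides at 67.7% G+C, and the first GATA2 start, the inner start and GATA2-AS1 have 29, 22 and 24 at 72.3%, 71.3% and 68.3%. The median promoter has 14 CpG and 58.7% G+C. These are matches of letters only.

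Depth was 7787444 and 13317496 reads in DPF2 replicates 1 and 2, and 10880366 and 17369133 reads in H3K14cr replicates 1 and 2, the order in which paired values are given. Over the tiles of the windows the 2 libraries of an antibody agree within sampling noise, with a chi-square per degree of freedom of 0.714 (GATA1) and 0.762 (GATA2) for DPF2, and 0.852 and 1.02 for H3K14cr. Their reads were therefore pooled per antibody for the ratios and pooled folds, whose intervals cover counting error only. Both library values are given throughout. The limma and edgeR tests between antibodies further below instead took the 2 libraries of each antibody as replicates. Their standard errors (SE) and p-values thus measure technical spread between those libraries. The labels do not say that they came from separate cultures, and differences between antibodies thus have no biological replicate check.

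Both windows carried more signal than their chromosomes as a whole. The GATA1 window had 1.00 and 1.06 CPM per kb for DPF2 and 1.35 and 1.3 for H3K14cr. This was 4.71 and 4.96 times the mean of chromosome X for DPF2, and 6.94 and 6.64 times for H3K14cr. The GATA2 window had 0.717 and 0.743 CPM per kb for DPF2 and 0.896 and 0.907 for H3K14cr, or 2.35 and 2.43 times the mean of chromosome 3 for DPF2 and 2.99 and 3.01 times for H3K14cr. The chromosomes differ in their own level: the mean of chromosome X was 0.194 to 0.214 CPM per kb and that of chromosome 3 was 0.3 to 0.306. In CPM per kb the GATA1 window was above the GATA2 window in every library, but the windows differ in width, and over 200 kb around each the order was the opposite (0.562 to 0.660 at GATA1 and 0.692 to 0.843 at GATA2). Among 73682 windows of 35 kb, 96.9 and 97.7% were lower than GATA1 for DPF2, and 98.5 and 98.3% for H3K14cr. Among 17503 windows of 150 kb, 90.7 and 92.0% were lower than GATA2 for DPF2, and 94.2 and 94.5% for H3K14cr.

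From 1000 to 2000 kb the level in CPM per kb fell more around GATA1 than around GATA2. Over 1000 kb centred on the GATA1 window the level was 0.467 to 0.528 CPM per kb across the 4 libraries, and over 2000 kb it was 0.318 to 0.341. Around GATA2 it was 0.590 to 0.685 over 1000 kb and still 0.542 to 0.614 over 2000 kb. Even over 2000 kb both loci stayed above their chromosome means (0.194 to 0.214 and 0.3 to 0.306). Those means differ, so these levels do not rank the widths of the 2 rises. All these levels are without correction by an input library.

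Against the chromosome mean, much of GATA1 was enriched (one-sided Poisson test, Benjamini-Hochberg adjusted p at most 0.001 and at least 3-fold in both libraries). H3K14cr passed in 17 of 35 tiles (48.6%), against 2.12% of all tiles of the genome. DPF2 passed in 10 of 35 tiles (28.6%), against 1.11% of all tiles, and H3K14cr also passed in all 10. Over the genome 24696 tiles passed for both antibodies, of 28915 for DPF2 and 55170 for H3K14cr. Most DPF2 tiles were thus shared over the genome too. At GATA2, H3K14cr passed in 23 of 150 tiles (15.3%) and DPF2 in 14 (9.33%), and 11 tiles were shared. The counts moved with the library: from the deeper DPF2 library alone (without DPF2 replicate 1) they were 17 at GATA1 and 28 at GATA2, and from the deeper H3K14cr library alone (without H3K14cr replicate 1) H3K14cr had 46 at GATA2. Tiles of 500 bp, which hold fewer reads, gave 5 for DPF2 at GATA1 and 2 at GATA2.

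**Figure D1:**
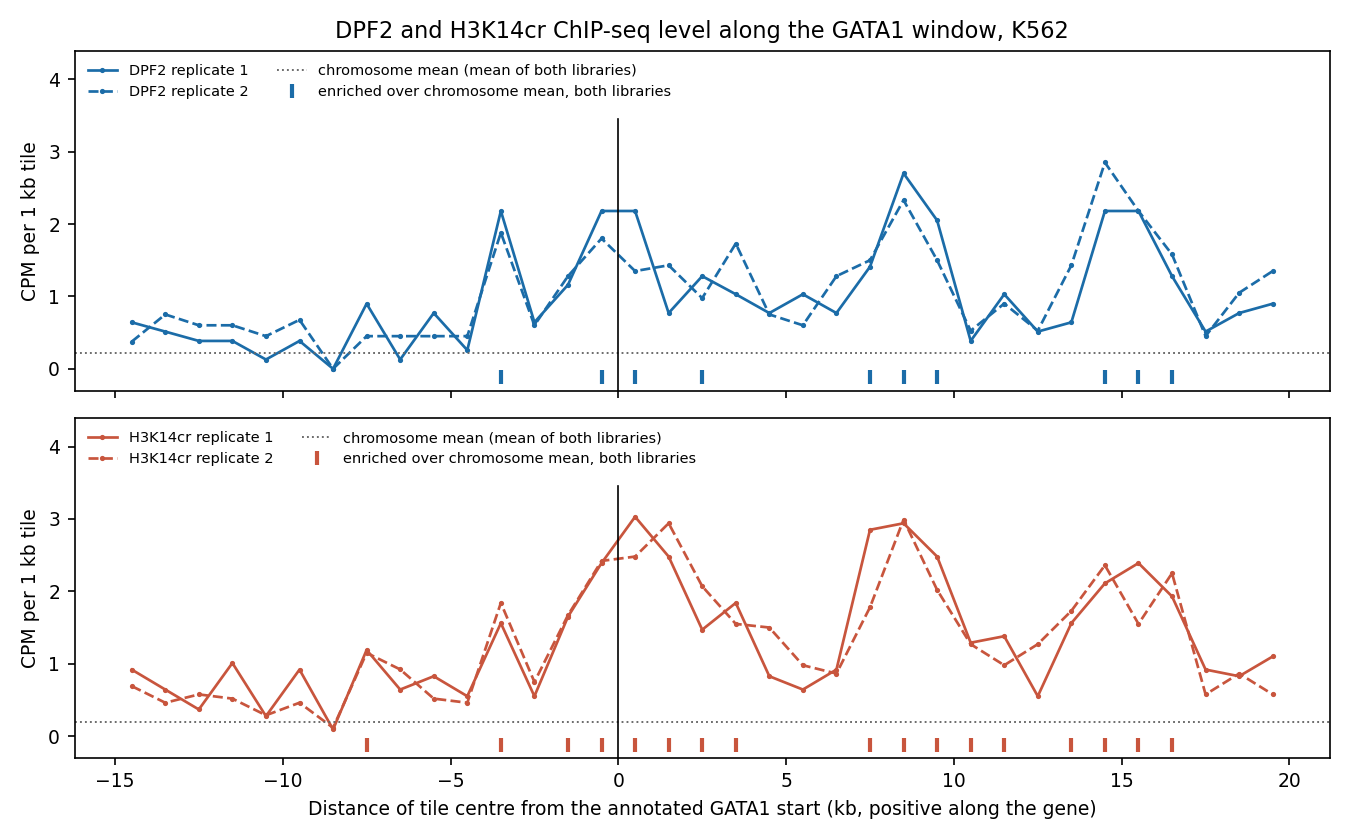
CPM per 1 kb tile (y axis) against distance from the GATA1 start (x axis) for DPF2 (top) and H3K14cr (bottom); solid and dashed lines are replicates 1 and 2, the dotted line is the chromosome X mean, and ticks mark tiles enriched over it in both libraries. Both antibodies rise at -3.5 kb, around the start, at 8.5 kb and at 14.5 to 16.5 kb.

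At GATA1 the signal formed 4 rises that both antibodies shared. Around the start, H3K14cr was enriched over an unbroken 6 kb, chrX:48643001-48649000, and DPF2 over chrX:48644001-48646000. The tile that holds the start, chrX:48644001-48645000, had 2.18 and 1.80 CPM for DPF2 and 2.39 and 2.42 for H3K14cr. The next tile, chrX:48645001-48646000, had 2.18 and 1.35 for DPF2 and 3.03 and 2.48 for H3K14cr. The upstream neighbour, chrX:48643001-48644000, was lower, at 1.16 and 1.28 for DPF2 and 1.65 and 1.67 for H3K14cr. Since the start lies near the edge of its tile, 1 kb centred on it was also counted: DPF2 had 16 and 19 reads (2.05 and 1.43 CPM per kb) and H3K14cr 34 and 37 (3.12 and 2.13).

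The other rises lay upstream and downstream of this one and were named after their values were seen. At -3.5 kb, chrX:48641001-48642000 had 2.18 and 1.88 CPM for DPF2 and 1.56 and 1.84 for H3K14cr. It stood alone: the next tile towards the gene had 0.642 and 0.601 for DPF2 and 0.551 and 0.748 for H3K14cr. At 8.5 kb, chrX:48653001-48654000 had the highest DPF2 level of the window in replicate 1, at 2.70 CPM, with 2.33 in replicate 2. Its H3K14cr level was 2.94 and 2.99. At 14.5 kb, chrX:48659001-48660000 had 2.18 and 2.85 for DPF2 and 2.11 and 2.36 for H3K14cr, in a stretch of both antibodies that ran to 48662000. The HDAC6 starts of the promoter table lie at a like distance from GATA1. Between the rises, levels stayed above the chromosome mean but fell to 0.385 and 0.526 for DPF2 at 10.5 kb (chrX:48655001-48656000), where H3K14cr was 1.29 and 1.27.

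Over the mean of the surrounding 20 kb these rises were shallow, and the neighbouring tiles were raised too. The fold over that local mean was 2.12 and 1.79 for DPF2 in the tile of the GATA1 start, and 1.72 and 1.77 for H3K14cr. In the downstream neighbour it was 2.10 and 1.31 for DPF2 and 2.16 and 1.75 for H3K14cr. In the upstream neighbour it was 1.16 and 1.29 for DPF2 and 1.22 and 1.26 for H3K14cr. The highest local fold anywhere in the window was 2.79 and 2.86 for DPF2 and 2.16 and 2.09 for H3K14cr. By the Poisson test against the larger of the local and the chromosome mean, with the same thresholds, 0 of 35 tiles were enriched for either antibody; genome-wide 0.221% of tiles were for DPF2 and 0.425% for H3K14cr. At an unadjusted p under 0.05 in both libraries there were 5 tiles for DPF2 and 6 for H3K14cr. The genome share at that threshold was not counted, so these counts do not show an excess.

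**Figure D2:**
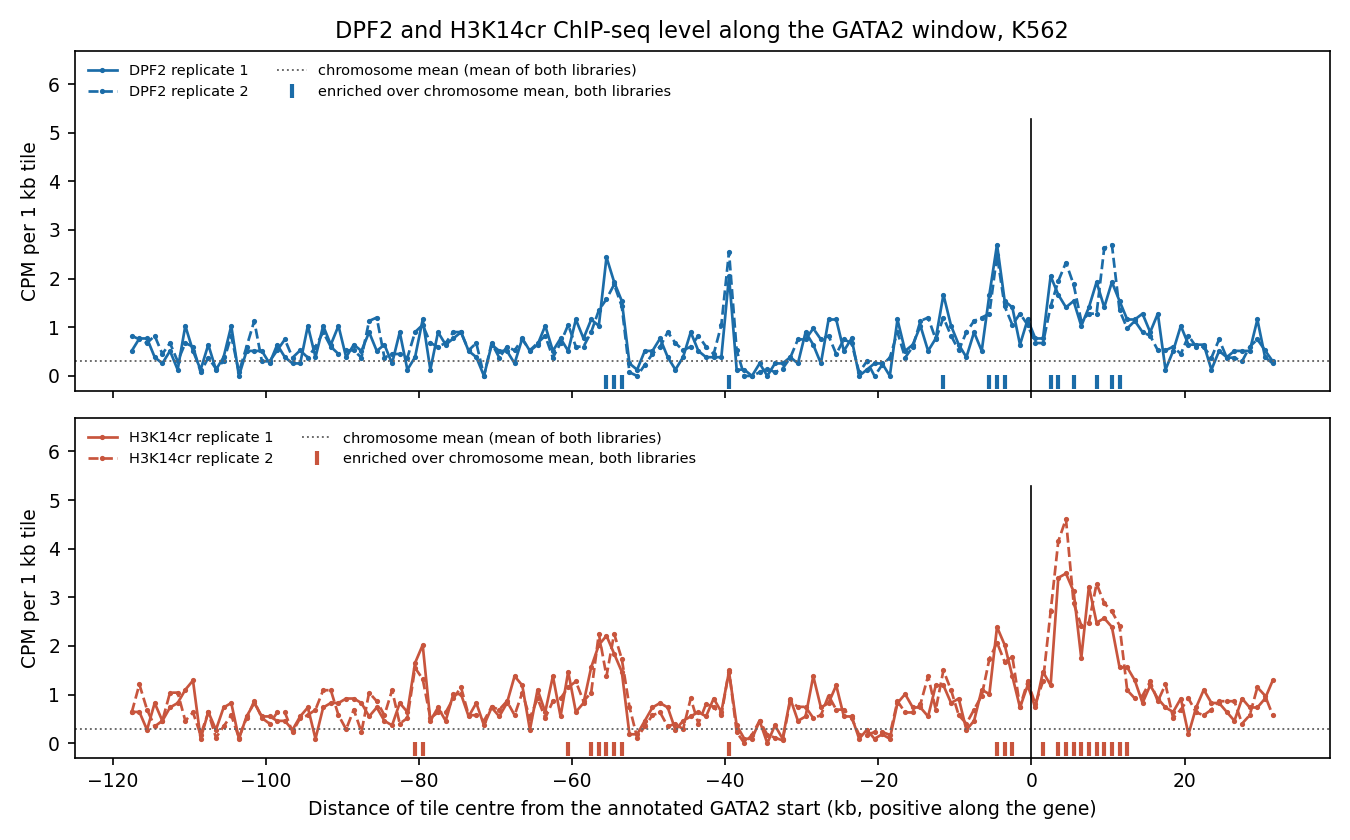
CPM per 1 kb tile (y axis) against distance from the first GATA2 start (x axis, negative upstream), with lines and ticks as for GATA1 and the chromosome 3 mean dotted. H3K14cr is highest at 3.5 and 4.5 kb inside the gene. DPF2 also rises at -39.5, -55.5 to -53.5 and -4.5 kb, where H3K14cr is enriched over the chromosome mean too.

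GATA2 showed another layout, with no rise of either antibody at its first start over the mean of the surrounding 20 kb. The tile of that start, chr3:128212001-128213000, had 1.16 and 1.05 CPM for DPF2 and 1.19 and 1.27 for H3K14cr. This was 3.8 and 3.43 times the chromosome mean for DPF2 and 3.98 and 4.2 times for H3K14cr, and in pooled reads above 95.4% and 96.2% of all tiles. The tile just inside the gene, chr3:128211001-128212000, had 0.770 and 0.676 for DPF2 and 0.735 and 0.806 for H3K14cr. The upstream neighbour, chr3:128213001-128214000, had 0.642 and 1.28 for DPF2 and 0.735 and 0.748 for H3K14cr. For H3K14cr the tile of the start was thus above both neighbours in each library. For DPF2 it was above both in replicate 1 only. Against the mean of the surrounding 20 kb the fold in the tile of the start was 0.909 and 0.769 for DPF2 and 0.691 and 0.646 for H3K14cr, each below 1. In pooled reads the fold was 0.819 for DPF2, with a counting interval of 0.519 to 1.23 that holds 1, and 0.662 (0.461 to 0.921) for H3K14cr. Over a local mean of 50 kb these became 1.11 (0.704 to 1.67) and 0.985 (0.686 to 1.37). The lower level thus holds only against the mean of the nearer surroundings, which include the raised gene body. In 1 kb centred on the start DPF2 had 11 and 13 reads and H3K14cr 12 and 18, too few to rank the antibodies there (ratio 1.07, 95% exact binomial interval 0.599 to 1.89).

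Inside the gene H3K14cr was enriched over the chromosome mean across an unbroken 10 kb, chr3:128199001-128209000. Its highest tiles were chr3:128207001-128208000, 4.5 kb inside, with 3.49 and 4.61 CPM, and chr3:128208001-128209000, 3.5 kb inside, with 3.40 and 4.15. In pooled reads 99.8% of all tiles lay below either of them. DPF2 in the same tiles had 1.41 and 2.33, and 1.67 and 1.95. All 4 values for DPF2 lay below all 4 for H3K14cr, an order that is not independent of the choice of the tiles through H3K14cr. The inner GATA2 start and the GATA2-AS1 start lie at like distances in the promoter table, at 4.7 and 4.0 kb. The highest DPF2 tile inside the gene was chr3:128201001-128202000 at 10.5 kb, with 1.93 and 2.70, where H3K14cr had 2.39 and 2.71.

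Upstream of GATA2 the rises of H3K14cr were lower than inside the gene. For DPF2, in pooled reads, the tile at -4.5 kb (2.56 CPM, 54 reads) was the highest of the window. The highest tile inside the gene was close to it (2.42 CPM, 51 reads). The other upstream DPF2 rises were lower than that tile, with 2.37 CPM at -39.5 kb and 1.90 at -55.5 and -54.5 kb. At -4.5 kb, chr3:128216001-128217000 had 2.70 and 2.48 CPM for DPF2 and 2.39 and 2.07 for H3K14cr. Both DPF2 values were above both H3K14cr values, but the ratio of 1.17 had a 95% exact binomial interval of 0.794 to 1.71, which holds 1. Between -55.5 and -53.5 kb, over chr3:128265001-128268000, DPF2 had 1.97 and 1.63 CPM per kb and H3K14cr 1.84 and 1.78. These are the bounds of the DPF2 stretch, and H3K14cr stayed enriched over the chromosome mean to 128270000. At -56.5 kb H3K14cr had 2.02 and 2.25 CPM and DPF2 1.03 and 1.35, a ratio of 0.571 (0.346 to 0.917). At -80.5 and -79.5 kb H3K14cr passed against the chromosome mean and DPF2 did not. Across chr3:128291001-128293000 H3K14cr had 1.84 and 1.44 CPM per kb, and DPF2 had 0.770 and 0.976. DPF2 was not absent: it stood at 3.8 and 3.43 times the chromosome mean at -79.5 kb, and at 1.27 and 2.94 times at -80.5 kb. The DPF2 / H3K14cr ratio was 0.684 (95% exact binomial interval 0.395 to 1.15) at -79.5 kb and 0.446 (0.231 to 0.816) at -80.5 kb. These places were named after their values were seen.

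In the 2 windows 1 tile of 185 was enriched over its local background by the rule on both libraries, for DPF2. Genome-wide 0.221% of tiles were for DPF2 and 0.425% for H3K14cr, so a single call does not show an excess in the windows. At chr3:128251001-128252000, -39.5 kb from the first GATA2 start, DPF2 had 2.05 and 2.55 CPM (16 and 34 reads), and H3K14cr 1.47 and 1.5 (16 and 26 reads). Both DPF2 libraries were above both H3K14cr libraries, an order that is not independent of the choice of the tile through DPF2. The fold over the local mean was 5.61 and 5.35 for DPF2, with a Poisson adjusted p of 3.26e-05 and 1.34e-11. For H3K14cr it was 3.02 and 3.23: replicate 2 passed (adjusted p = 4.76e-05) and replicate 1 did not (adjusted p = 0.0127), so without H3K14cr replicate 1 the tile is called for both antibodies. The surroundings of the tile were low, down to 1, 0, 1 and 0 reads in the DPF2 and H3K14cr libraries at chr3:128249001-128250000. Over a local mean of 50 kb the pooled fold was 3.92 for DPF2 and 2.17 for H3K14cr, against 5.43 and 3.15 over 20 kb. The call of 1 tile became 0 with the grid shifted by 500 bp, and with tiles of 500 bp or 2 kb. At an unadjusted p under 0.05 in both libraries the GATA2 window had 8 tiles for DPF2 and 13 for H3K14cr, again without a genome share to set beside them.

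**Figure D3:**
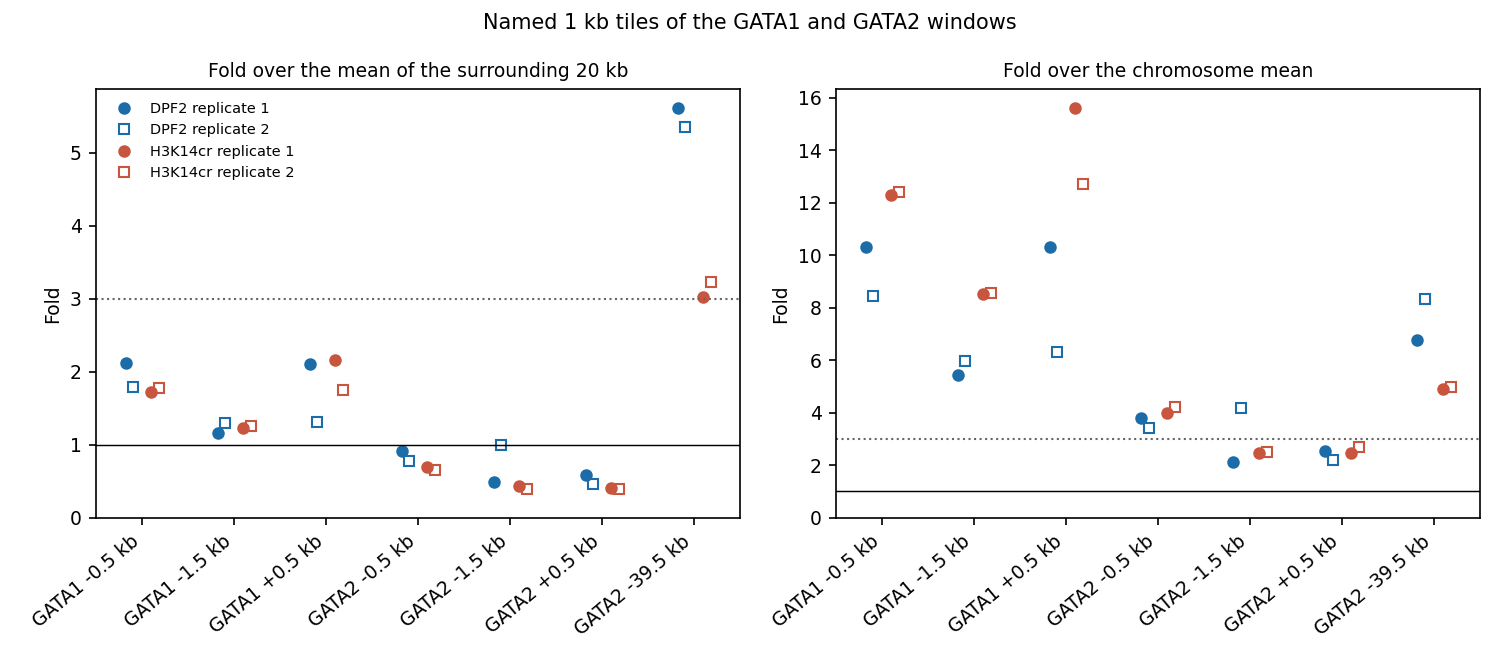
Fold (y axis) over the mean of the surrounding 20 kb (left) and over the chromosome mean (right) in the named 1 kb tiles (x axis, distance of the tile centre from the gene's start); filled circles are replicate 1 and open squares replicate 2, and the dotted line marks a fold of 3. The tiles at the GATA1 start stand high over the chromosome and low over their surroundings, and the GATA2 tile at -39.5 kb is the highest on the left.

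The balance of the antibodies was then compared. Over the whole GATA1 window the DPF2 / H3K14cr ratio of pooled reads, scaled by library totals, was 0.789 (95% exact binomial interval 0.720 to 0.863), and over the GATA2 window it was 0.812 (0.771 to 0.855). By replicate number it was 0.744 and 0.817 at GATA1, and 0.8 and 0.819 at GATA2. The intervals of the 2 windows overlap. The median ratio over all windows of these lengths was 1.06, and 1.85% of the 35 kb windows and 0.680% of the 150 kb windows had a lower ratio than GATA1 and GATA2, respectively. Over the 59389 tiles of the genome enriched over the chromosome mean for either antibody the median was 0.798, inside the intervals of both windows. It was 0.766 over the tiles enriched over local background for either antibody, below the GATA2 interval. Over the tiles enriched over the chromosome mean for both antibodies it was 0.881, above both intervals. The direction depends on the scaling: with median-of-ratios factors from the enriched tiles of the genome the windows' ratios were 1.02 and 1.05.

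Within the GATA2 window the ratio differed between segments, a comparison that scaling factors leave as it is. Over the gene body it was 0.621 (0.553 to 0.697), from 150 and 280 DPF2 reads and 329 and 598 H3K14cr reads, with 0.637 and 0.611 by replicate number. Over the first 10 kb upstream it was 1.03 (0.869 to 1.21), with 1.01 and 1.03. Farther upstream it was 0.873 (0.816 to 0.934), and downstream of the gene 0.751 (0.637 to 0.884). The intervals of the gene body and of the first 10 kb upstream do not overlap; with median-of-ratios factors the ratios were 0.806 and 1.33. In levels, the gene body had 1.40 and 1.53 CPM per kb for DPF2 and 2.20 and 2.50 for H3K14cr, and the first 10 kb upstream had 1.16 and 1.23 for DPF2 and 1.14 and 1.19 for H3K14cr. H3K14cr thus differed more between the 2 segments than DPF2 did. The gene's bounds were given beforehand, and the 10 kb limit was chosen after the tile values were seen.

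Single tiles spanned a wider range. At GATA1 the ratio was 0.807 (0.534 to 1.21) in the tile of the start, 0.740 (0.440 to 1.22) in its upstream neighbour and 0.616 (0.401 to 0.932) in its downstream neighbour. It was 1.15 (0.741 to 1.77) at -3.5 kb and 1.15 (0.787 to 1.68) at 14.5 kb. At GATA2 it was 0.880 (0.496 to 1.53) in the tile of the first start, 1.40 (0.736 to 2.68) in its upstream neighbour and 0.913 (0.440 to 1.84) in the downstream one. At -39.5 kb it was 1.59 (1.04 to 2.46), higher than in 96.3% of the tiles enriched for either antibody over local background. This tile was named through its DPF2 call alone, so its ratio, interval and rank are not independent of that choice. Over the genome 11049 tiles were enriched in this way for H3K14cr and 5731 for DPF2, so the ranking set holds more H3K14cr calls. The intervals of the GATA1 downstream neighbour and of the tile at -39.5 kb leave out 1, on opposite sides, but not in every alternative. For the GATA1 tile the ratio was 0.8 (0.52 to 1.21) with median-of-ratios factors, 0.811 (0.449 to 1.39) without DPF2 replicate 2 and 0.67 (0.416 to 1.07) without H3K14cr replicate 1. For the tile at -39.5 kb it was 1.38 (0.725 to 2.51) without DPF2 replicate 2, 1.58 (0.967 to 2.65) without H3K14cr replicate 1 and 1.61 (0.902 to 3.03) without H3K14cr replicate 2.

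**Figure D4:**
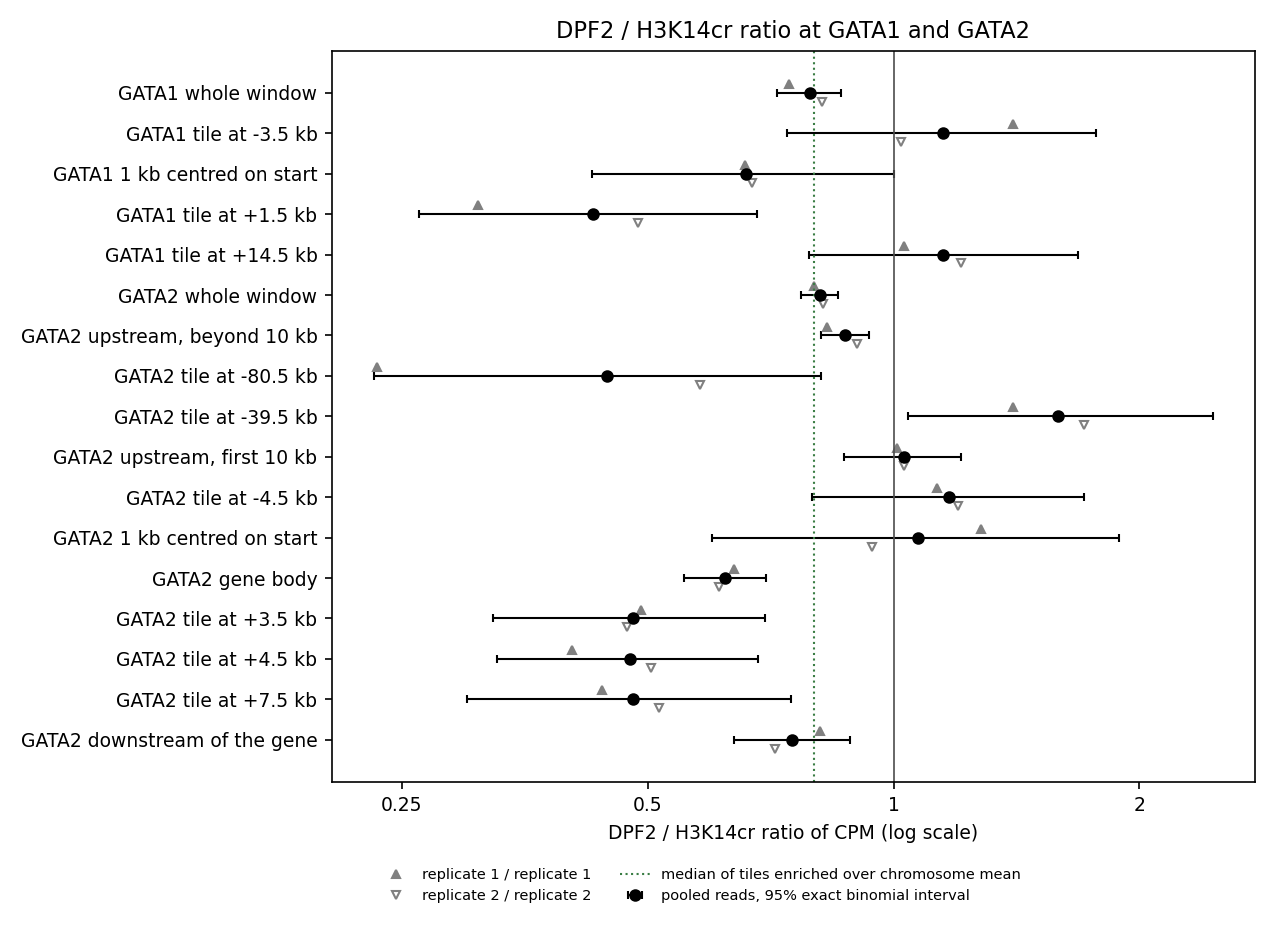
DPF2 / H3K14cr ratio of CPM (x axis, log scale) for whole windows, segments and tiles of GATA1 and GATA2 (y axis); black points are pooled reads with 95% exact binomial intervals, grey triangles the ratios by replicate number, and the dotted line the median of 0.798 over tiles enriched over the chromosome mean. The GATA2 gene body lies at 0.621, the first 10 kb upstream at 1.03 and the tile at -39.5 kb at 1.59.

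The tiles were tested between antibodies with limma on log2(CPM + 0.5), a scale that understates differences of low tiles. The fit took the 2 libraries of each antibody as replicates, so the SE and p-values below measure technical spread. Among the 12488 tiles of the genome enriched over local background with a mean of at least 10 reads, 35.3% passed at a threshold of 0.05 after Benjamini-Hochberg adjustment, 4.24% higher in DPF2 and 31.0% higher in H3K14cr. The windows hold 1 of these tiles, at -39.5 kb of GATA2, and it was not called: DPF2 minus H3K14cr was 0.49 (SE 0.23, limma adjusted p = 0.0862, unadjusted p = 0.0372). The tile was in the tested set through its DPF2 call alone, so the test is not independent of that selection. It was called with median-of-ratios factors (0.79, limma adjusted p = 0.0161) and without DPF2 replicate 1 (0.62, limma adjusted p = 0.0351). With edgeR it was not (0.67, adjusted p = 0.0688). Over its 10 alternatives the adjusted p ran from 0.0161 to 0.389.

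With all 255612 tiles of at least 10 reads tested, 1.39% were called, 1.19% higher in H3K14cr and 0.202% higher in DPF2. Of 22 such tiles at GATA1 and 53 at GATA2, 4 were called, each higher in H3K14cr, and 0 were called higher in DPF2 by limma or by edgeR. At an unadjusted limma p under 0.05, in either direction, there were 5 tiles at GATA1 and 10 at GATA2, and the genome share at that threshold was not counted. Of the 4 called tiles 1 was at GATA1, 1.5 kb inside the gene at chrX:48646001-48647000, where DPF2 had 0.770 and 1.43 CPM and H3K14cr 2.48 and 2.94. There the difference was -1.03 on the log2 scale (SE 0.25, limma adjusted p = 0.0117), with a ratio of 0.429 (0.262 to 0.681). The other 3 were inside GATA2. At 4.5 kb the difference was -0.96 (SE 0.22, limma adjusted p = 0.00881), and the ratio 0.476 (0.327 to 0.683). At 3.5 kb it was -0.88 (SE 0.22, limma adjusted p = 0.0188), and the ratio 0.479 (0.323 to 0.696). At 7.5 kb, chr3:128204001-128205000, it was -0.85 (SE 0.24, limma adjusted p = 0.0457), and the ratio 0.480 (0.3 to 0.749). In each of the 4 tiles both H3K14cr libraries were above both DPF2 libraries. The tiles were picked by this test on the same libraries. Their order, their ratios and their signs in the alternative fits below are thus not independent of the calls.

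These calls were lost in several fits. Without H3K14cr replicate 1, or without H3K14cr replicate 2, the number of called tiles was 0, and with median-of-ratios factors it was 0, while all 4 tiles stayed lower in DPF2 in each of these fits. Without H3K14cr replicate 1 the differences were -1.14 at GATA1 and -1.13, -1.01 and -0.69 at 4.5, 3.5 and 7.5 kb of GATA2, and without H3K14cr replicate 2 they were -0.93, -0.78, -0.76 and -1.01 in the same order. Calls over the genome fell from 3548 to 189 and 198 in these 2 fits. Without DPF2 replicate 1 it was 3: the GATA1 tile (-0.73, limma adjusted p = 0.145) and the GATA2 tile at 4.5 kb (-0.68, limma adjusted p = 0.104) were lost, and the GATA2 tile at 8.5 kb, chr3:128203001-128204000, was gained (-0.92, limma adjusted p = 0.0335). With edgeR it was 4. The median difference over the tested tiles was -0.26 at GATA1 and -0.14 at GATA2, against -0.11 over all 255612 tiles. With median-of-ratios factors these medians were 0.03, 0.11 and 0.15, so the sign of the median turned while both windows stayed below the genome. Libraries of an antibody agree within sampling noise, so these p-values measure technical spread.

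The 2 antibodies followed each other along both loci. Across the 35 tiles of GATA1 the Spearman correlation of reads was 0.813 between the DPF2 libraries, 0.839 between the H3K14cr libraries and 0.758 to 0.808 between antibodies. Across the 150 tiles of GATA2 it was 0.711, 0.682 and 0.607 to 0.722. Neighbouring tiles are not independent and share mappability and base composition, and the correlations are given as a description.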

How the data were processed

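ChIP-seq signal of 4 K562 libraries was analysed, grouped by the antibody in their titles. The authors deposited a signal value per 100 bp bin that held a read, scaled to 10000000 reads, in each library; per the submitters' processing notes Bowtie2 was used, with the builds mm9 and hg19, while its version, read filters and handling of duplicates are not stated there. The positions were taken as hg19: the last bins of chromosome 1 lie beyond its length in GRCh38. Values were divided by the signal of 1 read, which gave whole reads (tolerance 0.005) for all but 1, 3, 4 and 0 values. A bin was counted in the 1 kb tile of its midpoint.

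Local means took 10 tiles on each side and left out the tile itself; a mean with the tile included had been planned for the folds and is an alternative. Tests ran over all tiles of the genome and were checked on simulated data. Sites named by rule were the tile of each start, its neighbours and regions enriched over local background; members, lists and rule were chosen with earlier results of these data known. PCR copies cannot be told from separate molecules here. No annotation of hg19 was used here, so promoters of other GATA genes and partners were not analysed. Promoter sequences are from RefSeq (GRCh38.p14; 4 entries for the 3 symbols GATA1, GATA2 and GATA2-AS1). Statistics ran in R 4.3.3 (edgeR 4.0.16, limma 3.58.1) and in Python 3.11.15 with scipy 1.17.1, pandas 2.3.3 and numpy 2.4.6; plots came from matplotlib 3.10.9. Alternatives covered background, fold, tile size and grid, scaling, pseudocount, filter, test, the replicate block and each library left out.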

Additional observations from a re-analysis of the deposited data

How the results depend on the processing

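Counts of tiles enriched over local background were 0 at GATA1 for both antibodies under a fold of at least 2 or 5, the 20 kb mean alone, the shifted grid, 500 bp and 2 kb tiles and each library left out. The chromosome mean alone gave 10 (DPF2) and 17 (H3K14cr) at GATA1, and 14 and 23 at GATA2. The single DPF2 tile of GATA2 became 0 with the shifted grid, 500 bp tiles and 2 kb tiles. For H3K14cr at GATA2 the count was 0 to 1 with a library left out. Against the chromosome mean, alternatives chosen after seeing the data gave, for DPF2, 5 with 500 bp tiles and 10 to 17 with a library left out at GATA1. At GATA2 they gave 7 with a fold of at least 5, 2 with 500 bp tiles and 14 to 28 with a library left out for DPF2, and for H3K14cr 14 with a fold of at least 5 and 29 to 46 with a library left out. With a library left out, a call needs only the other one. The 44 alternative values of the ratios at named sites lay within the counting intervals of the reported ones. With median-of-ratios factors the window ratios were 1.02 (GATA1) and 1.05 (GATA2), and that of GATA2 beyond 10 kb upstream was 1.13. The number of window tiles called between antibodies was 1 under median-of-ratios factors, 4 when the fit took all tiles with 10 or more reads, and between 0 and 1 when any library was dropped. In that wider fit they numbered 0 with median-of-ratios factors and 0 to 5 with a library left out, where fewer samples were fitted and a library without a partner takes its spread from the other antibody. For other shifts the cause was not tested. Same-numbered libraries shared only a number: their deviations correlated at -0.017, and with a replicate block the counts were 0 and, in the wider fit, 5. Read depth limits single tiles.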
